A study of Mus musculus with 4 samples.

Results

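The genes described here are the mouse Wnt ligands, their frizzled and LRP receptors, and the inhibitors of Wnt signalling that act outside and inside the cell, in the hippocampus of mice after repeated social defeat stress. Members were chosen by gene symbol alone: every gene named Wnt or Fzd with a number, Lrp5 and Lrp6, the secreted frizzled-related genes Sfrp1, Sfrp2, Sfrp4, Sfrp5 and Frzb, the Dickkopf genes Dkk1 to Dkk4 with Dkkl1, Wif1, Axin1 and Axin2. The rule found 44 of the 19938 genes with a probe set of their own on the array. They were 19 Wnt ligands, 10 frizzled receptors, 2 co-receptors, 5 frizzled-related inhibitors, 5 Dickkopf genes, Wif1 and 2 axins.

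Wnt proteins are secreted, lipid-modified signals that bind frizzled receptors together with Lrp5 or Lrp6. In the canonical branch this binding halts the complex built on axin that otherwise marks beta-catenin for destruction, so that beta-catenin reaches TCF and LEF factors on DNA. Frizzled-related proteins and Wif1 bind Wnts before they reach a receptor, whereas Dkk1, Dkk2 and Dkk4 act on the LRP co-receptors. In the hippocampus the pathway is known for its part in building the structure, in adult neurogenesis of the dentate gyrus and at synapses.

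Hippocampal RNA of 4 mice (C57BL/6JJmsSlc males, 11 to 12 weeks old) was read on Affymetrix Mouse Gene 1.0 ST arrays, with 1 array for each mouse. The 2 R-SDS mice had met an aggressive ICR male for 10 min a day over 10 days, with the pairs reshuffled daily, and had stayed next to it behind a partition for the rest of each day. The 2 Control mice lived as pairs in partitioned cages and were never defeated. The study describes the R-SDS mice used for the arrays as susceptible by their avoidance of an ICR mouse, but the sample labels give the stress only. All values are the deposited log2 RMA values (a background-corrected, normalised probe summary), so that a difference of 1 is a doubling of the signal. For each gene the values are given for array 1 and then array 2 of a group. A signal depends on the probes as well as on the transcript, so the order of signals between genes is not read as an order of transcript amounts. Mean signals served only to choose genes to name, to order rows and to mark dim genes.

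The 4 arrays correlated at 0.988 to 0.996 across probe sets. The spread of the values followed the array number and not the stress, with interquartile ranges of 3.37 (R-SDS 1) and 3.11 (R-SDS 2), against 3.34 (Control 1) and 3.06 (Control 2). The 2 differences between arrays of equal number (R-SDS 1 minus Control 1, called within number 1, and likewise for number 2) therefore stand beside each group difference, although nothing in the labels says that arrays of 1 number were handled together. The 8 markers of hippocampal subfields had mean signals between 6.94 and 10.14, and 7 had a higher mean in R-SDS. Groups were apart, with both R-SDS arrays above both Control arrays, for 1 of them, where 9.52% of all genes were so. It was C1ql2, a dentate granule cell marker (0.39), while Dsp (0.39) and Prox1 (0.03) overlapped. All 5 astrocyte markers had a higher mean with overlapping groups. Of 6 thalamic markers 3 were higher and 3 lower, 1 with groups apart and lower (Calb2, -0.43), where 8.81% of all genes were so. All 11 measured markers of choroid plexus, the tissue in the brain ventricles that makes cerebrospinal fluid, were highest in R-SDS 1, where 5983 of all 19938 genes were so. Summed without the log, the signal of these markers reached 13490 in R-SDS 1 but 888.5 in R-SDS 2, against 3270 in Control 1 and 615.7 in Control 2. In bulk tissue, fewer cells of a type and less RNA per cell cannot be told apart.

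The comparison asked whether these genes differed between R-SDS and Control hippocampi. No member passed the adjusted p of limma, the linear model fitted over all 21789 probe sets with a single gene symbol (adjusted p = 1 for each of the 44), and no probe set on the array did (0% called). At limma's unadjusted p under 0.05, 0 members were higher and 1, Dkkl1, was lower in R-SDS, while 0.461% of all genes were higher and 0.522% lower. The methods' t-test put Wif1 alone under that p and no member after adjustment. With a log2 difference beyond 0.5 added to the p, as in the methods, 0 members were called, against 0.135% of all genes higher and 0.196% lower. Single arrays changed the size of the differences, as examples picked from their values show. Without R-SDS 2, Sfrp1 differed by 1.40, Fzd4 by 0.89, Sfrp5 by 0.70 and Fzd7 by 0.52. Without Control 2, Dkk2 differed by 0.54, and without R-SDS 1, Dkkl1 by -0.72. The median difference of the members, R-SDS minus Control, was 0.04, and over all genes it was 0.01. Both R-SDS arrays lay above both Control arrays for 5 members (Lrp5, Lrp6, Wif1, Wnt1 and Axin1), where 9.52% of all genes did so. They lay below for 4 members (Dkkl1, Wnt3a, Wnt16 and Sfrp2), where 8.81% of all genes did so. These counts are close to what all genes give, and the other 35 members overlapped. A permutation test of 2 against 2 arrays cannot go below p = 0.33 (exact, two-sided), so that no such test was run on single genes.

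**Figure D1:**
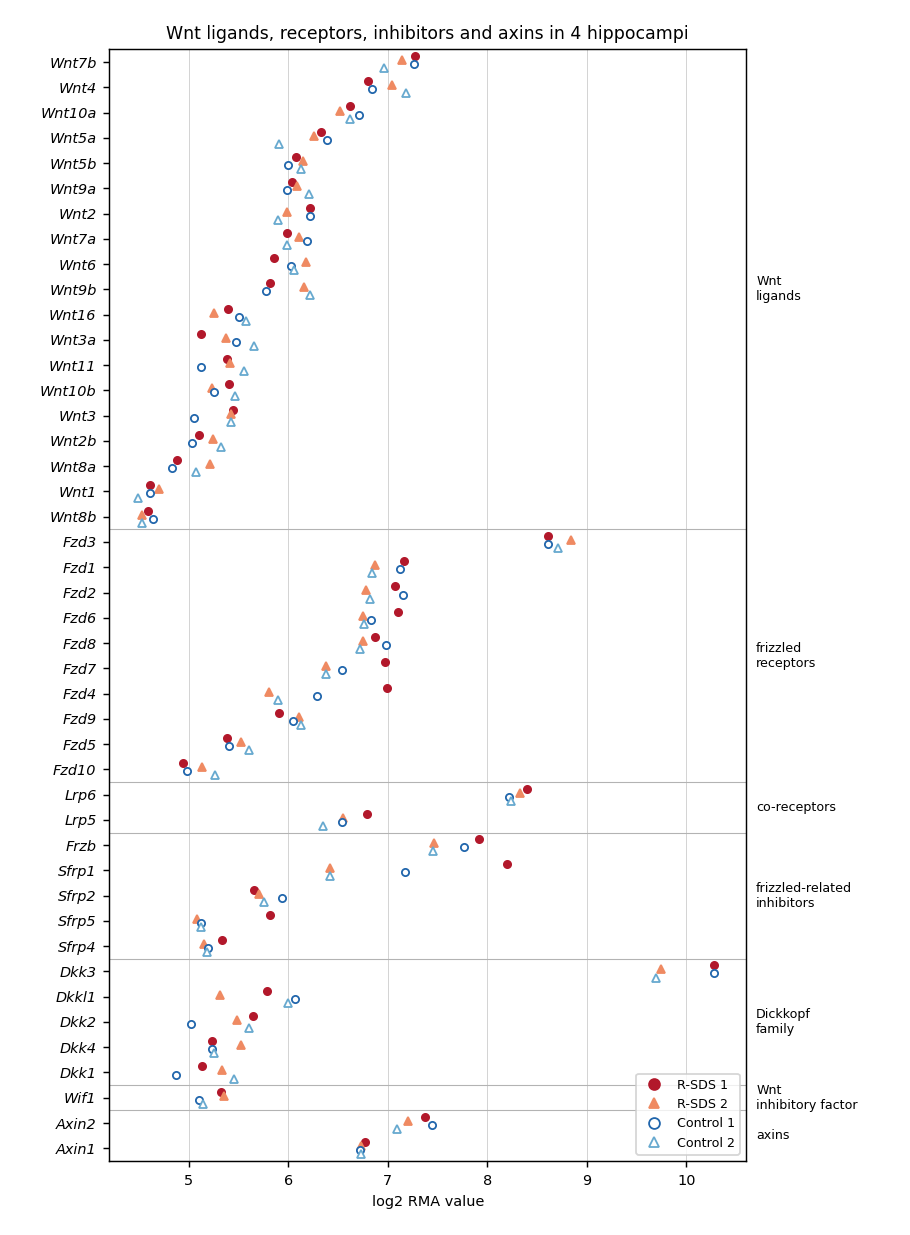
Each of the 44 genes is a row, grouped by role and sorted by mean within a role, and the x axis is the log2 RMA value. Filled symbols are R-SDS 1 (circle) and R-SDS 2 (triangle), open symbols Control 1 and Control 2. Most genes show 4 symbols within a narrow band, and Sfrp1 and Fzd4 show R-SDS 1 to the right of the other 3 arrays.

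Among the 19 ligands, 8 had a higher mean in R-SDS and 11 a lower one, with differences between -0.32 (Wnt3a) and 0.19 (Wnt3). Wnt3a, a canonical ligand without which the hippocampus does not form, read 5.12 and 5.37 in R-SDS mice, against 5.47 and 5.65 in Control mice. Both R-SDS arrays lay below both Control arrays, with a difference of -0.32 (SE 0.16), or 0.804 times the Control signal, which limma did not call (unadjusted p = 0.0877, adjusted p = 1). The difference was -0.35 within number 1 and -0.28 within number 2. Wnt16, a ligand best known from bone, read 5.39 and 5.25 in R-SDS mice, against 5.50 and 5.58 in Control mice. It too was lower in both R-SDS arrays, with a difference of -0.22 (SE 0.13) that was -0.11 within number 1 and -0.32 within number 2. Wnt1, which patterns the midbrain and was named after its values were seen, read 4.61 and 4.70 in R-SDS mice, against 4.61 and 4.49 in Control mice. Its groups were apart by a narrow gap, as R-SDS 1 and Control 1 were nearly equal.

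The other ligands overlapped between the groups. Wnt3, which hippocampal astrocytes release and which acts on adult neural stem cells, read 5.44 and 5.42 in R-SDS mice, against 5.05 and 5.42 in Control mice. The low Control 1 array alone made its difference of 0.19 (SE 0.17): without Control 1 it was 0.01. Wnt7b, a ligand of dendrite growth and brain vessel formation, read 7.27 and 7.14 in R-SDS mice, against 7.27 and 6.97 in Control mice, and its difference of 0.09 was -0.06 without Control 2. Wnt4, known from kidney and gonad development, read 6.80 and 7.04 in R-SDS mice, against 6.84 and 7.18 in Control mice, with both arrays numbered 2 above both numbered 1. A second Wnt4 probe set read 6.77 and 6.55 in R-SDS mice, against 6.89 and 6.55 in Control mice, and there the arrays numbered 1 were the higher ones. The 2 Wnt4 probe sets therefore disagreed on the array number and had group differences of -0.09 and -0.06. Wnt10a, a ligand of teeth and skin appendages, read 6.62 and 6.52 in R-SDS mice, against 6.71 and 6.62 in Control mice, a difference of -0.10 (SE 0.13) with nearly the same size within number 1 (-0.09) and number 2 (-0.10).

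Of the ligands without a place in the naming rule, Wnt5a, the main ligand of the branches that bypass beta-catenin, had a difference of 0.35 within number 2 and -0.06 within number 1. Wnt7a, a ligand of synapse formation, differed by -0.04, and Wnt8b, a marker of the embryonic hippocampal field, by -0.02. Wnt genes often lie side by side in the genome, and 4 such pairs were measured. Wnt3a differed by -0.32 and its neighbour Wnt9a by -0.03, Wnt3 by 0.19 and Wnt9b by -0.01, Wnt1 by 0.11 and Wnt10b by -0.04, and Wnt10a by -0.10 and Wnt6 by -0.03. Of the 19 ligands, 16 had a mean signal below the median of all genes (6.52) and 2 (Wnt1 and Wnt8b) below the lower quartile (4.97), where an array reads dim and absent transcripts alike.

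None of the 10 frizzled receptors had groups apart, where 9.52% of all genes were apart and higher and 8.81% apart and lower. Of the 10, 5 had a higher and 5 a lower mean in R-SDS. Fzd3, which guides axons through the planar polarity branch, read 8.61 and 8.84 in R-SDS mice, against 8.61 and 8.71 in Control mice. Fzd1 and Fzd2 are receptors that can couple to beta-catenin. Fzd1 read 7.16 and 6.87 in R-SDS mice, against 7.12 and 6.84 in Control mice, and Fzd2 read 7.07 and 6.78 in R-SDS mice, against 7.15 and 6.82 in Control mice. In both genes the arrays numbered 1 were the higher ones whichever group they came from, and the group differences of 0.04 and -0.06 were smaller than that gap. Fzd6, a receptor of tissue polarity, read 7.10 and 6.75 in R-SDS mice, against 6.83 and 6.76 in Control mice, so that R-SDS 1 stood above the other 3 arrays. Fzd7, a receptor known from stem cells, read 6.98 and 6.37 in R-SDS mice, against 6.54 and 6.37 in Control mice. Fzd4, the receptor of norrin in brain and retinal vessels, read 6.99 and 5.80 in R-SDS mice, against 6.29 and 5.90 in Control mice. Its difference of 0.30 (SE 0.38) was the largest of the receptors and rested on R-SDS 1: it was 0.70 within number 1 and -0.10 within number 2. Without R-SDS 1, Fzd4 differed by -0.29 and Fzd7 by -0.08. Fzd5, Fzd8, Fzd9 and Fzd10 differed by -0.09 to -0.04.

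Both co-receptors were higher in both R-SDS arrays than in both Control arrays. Lrp6, the co-receptor that Dkk1 blocks, read 8.40 and 8.33 in R-SDS mice, against 8.21 and 8.24 in Control mice, and averaged 8.36 ± 0.05 in R-SDS and 8.23 ± 0.02 in Control (SD, n = 2 each). The difference of 0.14 (SE 0.13) was 0.19 within number 1 and 0.09 within number 2. Lrp5, its close relative, which also serves norrin signalling in vessels, read 6.79 and 6.55 in R-SDS mice, against 6.54 and 6.35 in Control mice, and averaged 6.67 ± 0.17 in R-SDS and 6.44 ± 0.14 in Control (SD, n = 2 each). The difference of 0.23 (SE 0.15), or 1.17 times the Control signal, was 0.25 within number 1 and 0.20 within number 2. limma called neither (unadjusted p = 0.322 for Lrp6 and 0.194 for Lrp5, adjusted p = 1 for both), and leaving out single arrays gave 0.10 to 0.17 for Lrp6 and 0.10 to 0.35 for Lrp5. Of 6 endothelial markers, 3 had groups apart and higher in R-SDS, where 9.52% of all genes did, with a summed unlogged signal of 1317 and 1123 in R-SDS mice, against 1165 and 996.1 in Control mice. Their part in the Lrp5 and Lrp6 values was not tested.

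Of the 5 frizzled-related inhibitors, 4 had a higher mean in R-SDS, yet in 4 of the 5 the highest array was R-SDS 1. Of all 19938 genes, 10653 had a higher mean in R-SDS and 5983 were highest in R-SDS 1, more than in any other array. Sfrp1 (probe set 10570957, on chromosome 8), which binds Wnts outside the cell, read 8.19 and 6.42 in R-SDS mice, against 7.17 and 6.42 in Control mice. R-SDS 2 and Control 2 were equal to 2 decimals, while R-SDS 1 stood 1.03 above Control 1. The difference of 0.51 (SE 0.57), or 1.43 times the Control signal, was the largest among the 44 members, and at this spread limma did not call it (unadjusted p = 0.402, adjusted p = 1). Without R-SDS 1 it was -0.38. Sfrp5, which binds Wnt5a, read 5.82 and 5.08 in R-SDS mice, against 5.12 and 5.12 in Control mice, so that R-SDS 1 alone stood apart and the difference of 0.33 (SE 0.25) became -0.04 without it. Frzb, also called Sfrp3, which granule neurons of the dentate gyrus make and which restrains adult neurogenesis, read 7.91 and 7.46 in R-SDS mice, against 7.77 and 7.45 in Control mice. Its arrays numbered 1 were higher than those numbered 2 in either group, and the difference was 0.08 (SE 0.20). Sfrp2 was the member of this family with groups apart: it read 5.65 and 5.71 in R-SDS mice, against 5.94 and 5.76 in Control mice, a difference of -0.17 (SE 0.14) that was -0.28 within number 1 and -0.05 within number 2. Sfrp4 differed by 0.05.

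The Dickkopf family held the 1 member under limma's unadjusted p. Dkkl1 (probe set 10563170, on chromosome 7), a divergent relative of the Dickkopf proteins known from the sperm acrosome, read 5.78 and 5.32 in R-SDS mice, against 6.07 and 5.99 in Control mice, and averaged 5.55 ± 0.33 in R-SDS and 6.03 ± 0.05 in Control (SD, n = 2 each). Both R-SDS arrays were below both Control arrays, with a difference of -0.48 (SE 0.18), or 0.715 times the Control signal (unadjusted p = 0.0395, adjusted p = 1 in limma). It was -0.29 within number 1 and -0.68 within number 2, and R-SDS 2 carried most of it: without R-SDS 2 it was -0.25 and without R-SDS 1 it was -0.72. Without R-SDS 2, Control 1 or Control 2, or after quantile normalisation, Dkkl1 was no longer under that p, and after quantile normalisation Wnt3a was the member under it. Dkk3, which does not block the LRP co-receptors as Dkk1 does and is made by many neurons, read 10.28 and 9.74 in R-SDS mice, against 10.28 and 9.69 in Control mice. The arrays numbered 1 were the higher ones in each group, and the group difference was 0.03 (SE 0.26). Dkk2 read 5.64 and 5.48 in R-SDS mice, against 5.03 and 5.61 in Control mice. Here the low value was Control 1, and the difference of 0.24 (SE 0.21) was -0.05 without that array. Dkk4, an inhibitor that Wnt signalling itself induces, read 5.23 and 5.53 in R-SDS mice, against 5.23 and 5.25 in Control mice, with R-SDS 2 above the other 3 arrays. Dkk1, the classical LRP blocker, differed by 0.07 (SE 0.22), with 0.26 within number 1 and -0.12 within number 2.

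Wif1, a secreted protein that holds Wnts through its own Wnt-binding domain, read 5.32 and 5.36 in R-SDS mice, against 5.10 and 5.15 in Control mice. Replicates lay close together, at 5.34 ± 0.02 in R-SDS and 5.12 ± 0.03 in Control (SD, n = 2 each), and the difference of 0.22 (SE 0.13) was nearly the same within number 1 (0.22) and number 2 (0.21). limma, which sets the spread of a gene against that of all genes, gave an unadjusted p of 0.140 and an adjusted p of 1. Without single arrays the difference was 0.19 to 0.24. Axin2, a scaffold of the destruction complex and a direct target of beta-catenin that serves as a readout of the pathway, read 7.37 and 7.21 in R-SDS mice, against 7.45 and 7.10 in Control mice. Its groups overlapped, with a difference of 0.02 (SE 0.17). Axin1, the constantly made scaffold, read 6.77 and 6.73 in R-SDS mice, against 6.72 and 6.73 in Control mice, and although its groups were apart, the difference was only 0.03 (SE 0.13).

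**Figure D2:**
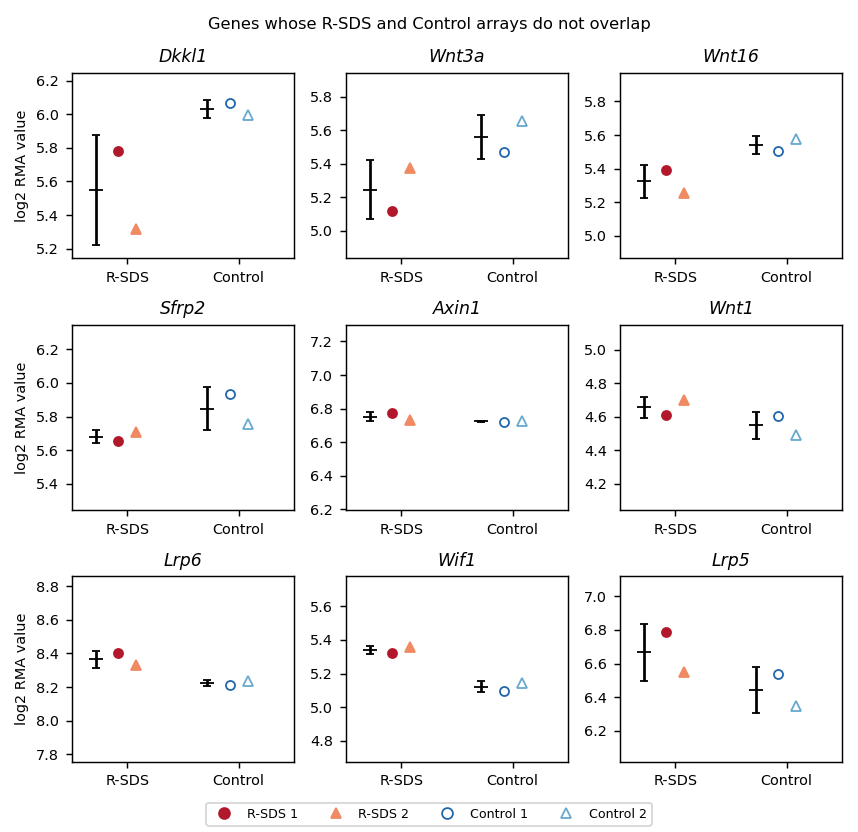
The 9 genes whose R-SDS arrays both lay above or both below the Control arrays, ordered from the lowest difference (Dkkl1, -0.48) to the highest (Lrp5, 0.23). The y axis is the log2 RMA value over a range of the same height in each panel, symbols are arrays, and the black bar is the mean ± SD of the 2 arrays of a group.

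Within number 1, 12 of 44 members were beyond 0.25 in either direction, and within number 2, 5 were. Of all 19938 genes, 3559 and 2610 were, a smaller share than of the members within number 1 and a larger one within number 2. Above 0.4 within number 1 were 5 members, chosen after their values were seen: Sfrp1 (1.03), Fzd4 (0.70), Sfrp5 (0.70), Dkk2 (0.61) and Fzd7 (0.43). They made up 11.4% of the members, and 4.09% of all genes were above 0.4 there. Within number 2 the same genes differed by -0.005 (Sfrp1), -0.10 (Fzd4), -0.04 (Sfrp5), -0.12 (Dkk2) and 0.0003 (Fzd7), and 0 members were above 0.4. Of the 44 members, 12 were higher in R-SDS within both numbers, 10 were lower within both, and 22 had opposite signs. Of all 19938 genes, 5548 were higher within both, 4450 lower within both, and 9834 had opposite signs, which are similar shares.

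**Figure D3:**
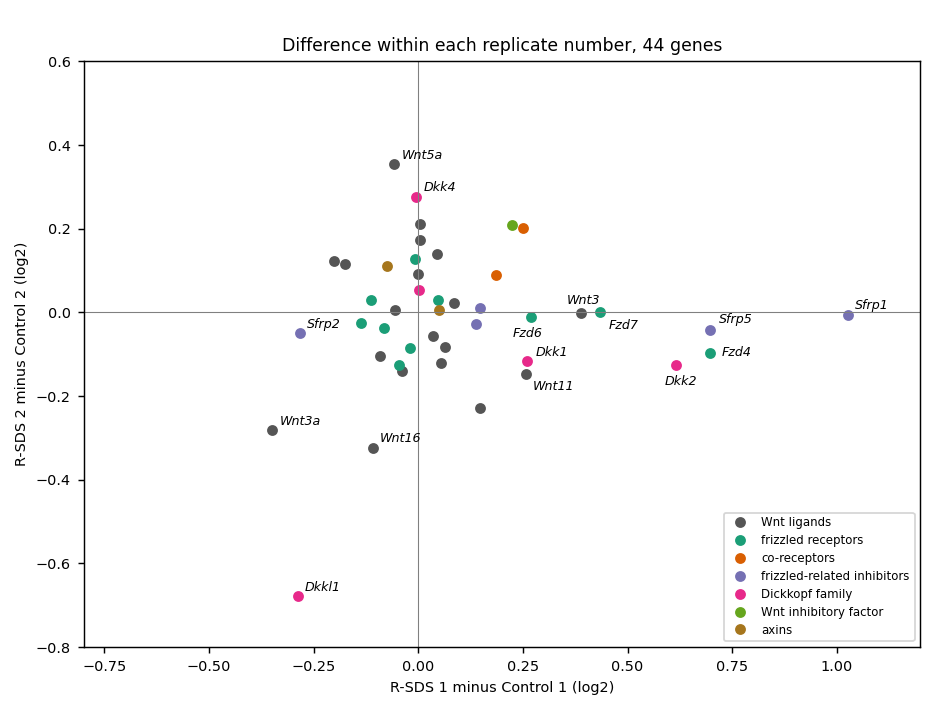
Each point is 1 of the 44 genes, coloured by role, with the log2 difference R-SDS 1 minus Control 1 on the x axis and R-SDS 2 minus Control 2 on the y axis. Genes beyond 0.25 on either axis are named. Sfrp1, Fzd4, Sfrp5, Dkk2 and Fzd7 extend along the x axis near 0 on the y axis, and Dkkl1 lies lowest.

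These 5 genes were chosen for R-SDS 1 standing above Control 1, which largely fixed that R-SDS 1 was their highest array. The choroid plexus markers were highest in the same array. Within number 1 these 11 markers had a median difference of 2.21, and for number 2 it was -0.08, with 5 markers higher in R-SDS and 6 lower. Groups were apart and higher in R-SDS for 3 markers (Tmem72, Aqp1 and Kcne2), where 9.52% of all genes were so. Aqp1 alone passed the thresholds of the methods in limma (difference 1.24, unadjusted p = 0.0364), but not the adjusted p. Its difference for number 2 was 0.53. Ttr, which encodes the thyroid hormone carrier transthyretin, read 13.21 and 8.79 in R-SDS mice, against 11.38 and 7.43 in Control mice, and Kcnj13, a potassium channel of the choroid plexus, read 10.75 and 5.56 in R-SDS mice, against 7.34 and 5.83 in Control mice. For Sfrp1, Fzd4 and Fzd7, R-SDS 1 was highest and Control 1 next, whereas Dkk2 was lowest in Control 1. Sfrp5 had level Control arrays, both at 5.12. The markers differed in this order. Control 1 was next in Ttr, Kcnj13, Clic6, Folr1, Kl, Otx2 and Slc4a5, and R-SDS 2 was next in Tmem72, Aqp1 and Kcne2. Steap1 had level Control arrays, both at 3.98. The 8 markers of meninges and fibroblasts had a summed unlogged signal of 2424 and 1542 in R-SDS mice, against 1594 and 1387 in Control mice. Of these 8, 6 were highest in R-SDS 1, where 5983 of all 19938 genes were so. The part of choroid plexus and meninges in the values of these 5 genes was not tested. The other 39 members had a median difference of 0.03.

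**Figure D4:**
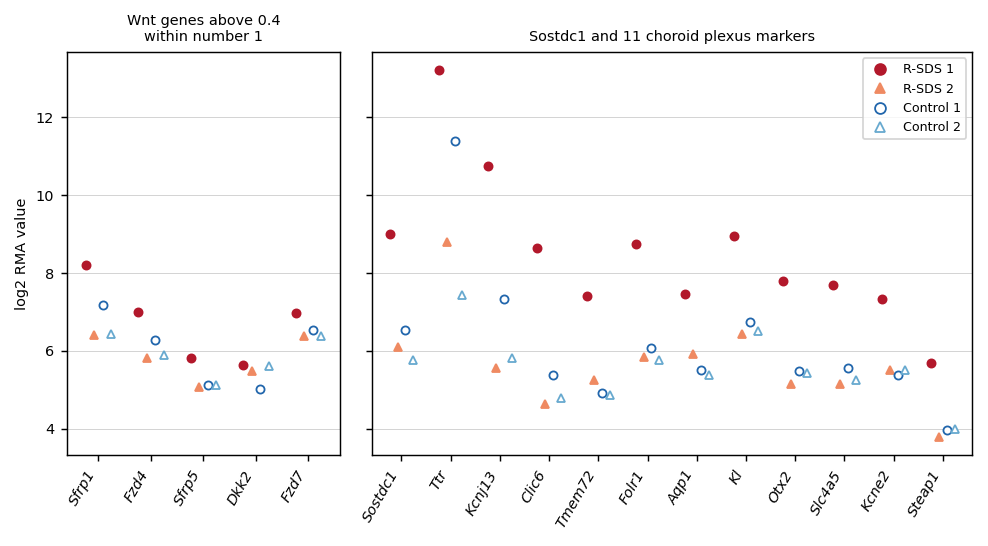
Log2 RMA values (y axis) of the 5 Wnt genes above 0.4 within number 1 (left) and of Sostdc1 and the 11 measured choroid plexus markers (right). Filled symbols are R-SDS arrays and open symbols Control arrays. R-SDS 1 is the highest array for each gene shown, which for the 5 Wnt genes follows largely from how they were chosen. The markers are spread over a wider range than the Wnt genes.

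Some members differed by array number rather than by group, in shares close to those of all genes. Both arrays numbered 1 were above both numbered 2 for 16 members, or 36.4%, where 32.1% of all genes were so. Dkk3, Frzb, Fzd1, Fzd2 and Axin2 were among them. Both arrays numbered 2 were above for 14 members, or 31.8%, where 28.9% of all genes were so, among them Wnt4, Wnt9b, Fzd3 and Fzd10.

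Promoters are shown for the genes above 0.4 within number 1 that have an entry in the RefSeq table (GRCm38.p6), for Dkkl1, the member with the lowest p, and for Frzb, as an example of the letters searched. Each is the run of 100 bases before the annotated start, and capitals mark the core letters CTTTGA or TCAAAG that TCF and LEF factors bind.
Sfrp5 (chr19:42202253-42202352, minus strand): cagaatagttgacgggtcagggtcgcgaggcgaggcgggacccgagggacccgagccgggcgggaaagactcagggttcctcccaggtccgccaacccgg
Fzd4 (chr7:89404266-89404365, plus strand): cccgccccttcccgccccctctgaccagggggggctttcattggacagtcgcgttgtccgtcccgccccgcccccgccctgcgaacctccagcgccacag
Fzd7 (chr1:59482047-59482146, plus strand): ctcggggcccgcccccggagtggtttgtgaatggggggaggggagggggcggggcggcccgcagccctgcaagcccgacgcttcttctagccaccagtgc
Dkk2 (chr3:132085192-132085291, plus strand): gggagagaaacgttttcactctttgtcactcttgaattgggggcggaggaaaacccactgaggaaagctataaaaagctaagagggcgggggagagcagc
Dkkl1 (chr7:45211884-45211983, minus strand): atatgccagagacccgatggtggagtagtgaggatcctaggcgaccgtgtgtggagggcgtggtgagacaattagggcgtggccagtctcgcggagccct
Frzb (chr2:80447397-80447496, minus strand): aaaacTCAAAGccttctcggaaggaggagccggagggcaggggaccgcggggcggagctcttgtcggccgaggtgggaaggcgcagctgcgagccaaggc
The core was searched on both strands, as CTTTGA and its reverse complement TCAAAG, over the 250 bases before each start. It was present in 5 of 32 promoters of the 29 members with an entry, or 15.6%, and in 13.8% of the 32851 mouse promoters of the table. The promoters with it belonged to Frzb (first base 95 before the start), Fzd1 (242), Wnt5b (71 in 1 of its promoters), Wnt11 (50) and Dkk1 (174 and 117). Of the genes above 0.4 within number 1, those with an entry did not hold these letters in the window. Member promoters were rich in G and C, with a median of 67.4% against 52.4% over the whole table, and spanned 48.4% to 87.6%. Wnt3a stood at the top of that range, with 87.6%, while Dkk2 had 55.6% and Dkkl1 52.4%.

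Other genes of the pathway were read from lists set by pathway role. Of 76 measured genes that are no members, 42 had a higher and 34 a lower mean in R-SDS, with a median difference of 0.01. Both R-SDS arrays lay above both Control arrays for 8 of them and below for 6, where 9.52% and 8.81% of all genes did so. Under limma's unadjusted p of 0.05 there were 0, where 0.461% of all genes were higher and 0.522% lower.

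Outside the cell, Sostdc1, a secreted inhibitor that binds Lrp6 and BMPs, read 8.999 and 6.09 in R-SDS mice, against 6.55 and 5.78 in Control mice. Its difference of 1.38 (SE 0.87) was 2.45 within number 1 and 0.31 within number 2, so that it shared the high R-SDS 1 array with Sfrp1 and the choroid plexus markers, and the list it belongs to had a median of 0.03 over 17 genes. In that list 2 genes had groups apart and higher and 3 apart and lower, where 9.52% and 8.81% of all genes did. Among them were Draxin, an axon guidance protein that inhibits Wnts (0.20, SE 0.14), and Ndp, which encodes norrin, the ligand of Fzd4 (-0.16, SE 0.13). The others, named after their values were seen, were Reck (0.14), Adgra2 (-0.15) and Ptk7 (-0.07). Of the 9 genes of the R-spondin module, whose ligands stabilise frizzled receptors, Rspo1 read 6.39 and 6.10 in R-SDS mice, against 6.90 and 6.26 in Control mice, a difference of -0.33 (SE 0.24) in overlapping groups. Lgr4, an R-spondin receptor, differed by -0.16, and Rspo4 by -0.16. In the module 4 genes had a higher and 5 a lower mean, and the gene with groups apart, Rspo2, named after its values were seen, was higher (0.10, SE 0.14). Of the 6 genes of Wnt secretion and release, 3 had groups apart and higher, where 9.52% of all genes did: Notum, which removes the lipid from Wnts (0.19, SE 0.15), Gpc4, a glypican (0.15, SE 0.14), and Wls, the carrier that takes Wnts to the cell surface, named after its values were seen (0.10, SE 0.13). Gpc6, named likewise, had groups apart and lower (-0.05, SE 0.13), and Cthrc1 differed by 0.13 in overlapping groups.

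None of the 16 genes of the destruction complex and cytoplasmic relay had groups apart, and their differences lay between -0.05 (Amer1) and 0.09 (Csnk1d). Of all genes, 9.52% were apart and higher and 8.81% apart and lower, the shares to set beside each list here. Ctnnb1, which encodes beta-catenin, differed by 0.02 and Gsk3b, the kinase that marks it, by -0.01. Of 11 nuclear factors, 1 was apart and higher and 1 apart and lower. The higher one was Tcf7l1, a TCF that mostly represses its targets, with a difference of 0.24 (SE 0.16). It read 6.73 and 6.53 in R-SDS mice, against 6.53 and 6.27 in Control mice. The lower one was Bcl9l, named after its values were seen (-0.06, SE 0.13). Pygo1, a partner of beta-catenin on DNA, differed by 0.17 and Lef1 by 0.16, both in overlapping groups. The 12 feedback and target genes, Axin2 and Dkk1 among them, had a median difference of 0.02, with 1 gene apart (Notum, higher). Myc differed by 0.15 in overlapping groups. Of 12 genes of the planar polarity and calcium branch, Vangl1 was apart and higher (0.22, SE 0.15) and Celsr2 apart and lower (-0.15, SE 0.14), and Celsr3 differed by -0.19 in overlapping groups.

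**Figure D5:**
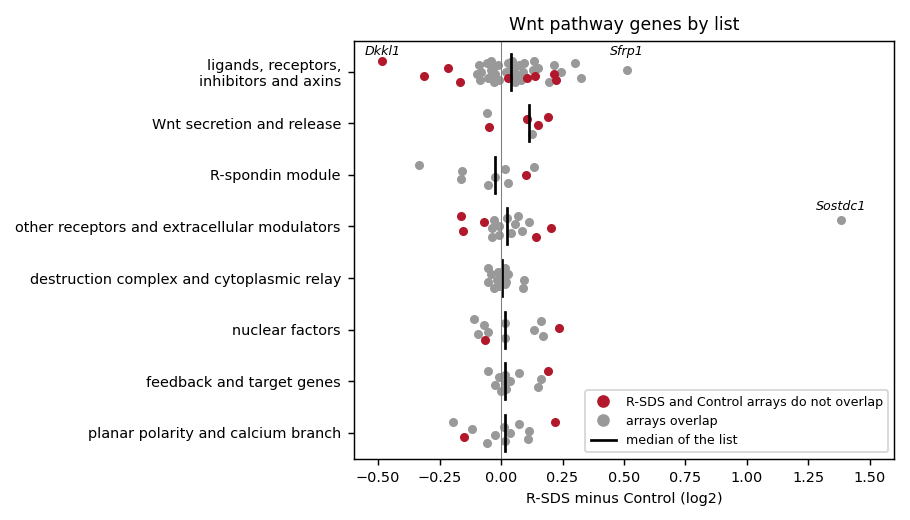
Log2 difference, R-SDS minus Control (x axis), of the 44 members and of 7 lists of other Wnt pathway genes (rows), with 1 point per gene spread vertically for sight only. Red points are genes whose R-SDS and Control arrays do not overlap, and black bars are medians. Every median lies between -0.03 and 0.12, and Sostdc1 (1.38) is the point farthest from 0.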

How the data were processed

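Total RNA of hippocampus was hybridised to 4 arrays. The authors normalised the scans with RMA in Affymetrix Expression Console and deposited log2 values of 35556 probe sets, a summary that corrects background and probe effects and quantile-normalises arrays run together; the deposited columns still differed in spread. Whether all 4 arrays were run together is not stated in these sources. The platform annotation gave 1 symbol to 21789 probe sets (19938 genes), several to 1621 and none to 12146. The brightest probe set stood for a gene. The members and lists were chosen with earlier results of these data known.

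R-SDS minus Control was fitted to the deposited log2 values with limma 3.58.1 (lmFit, eBayes) over all probe sets with 1 symbol, with Benjamini-Hochberg adjustment, in R 4.3.3. The procedure was tested on simulated data. Fits had 2 residual degrees of freedom and 4.07 from the prior. The p-values of limma set each difference against the spread between arrays of a group, drawn in part from all probe sets. The main fit had no term for array number, so any effect of that number lies within this spread. With 2 arrays per group, every value is limited. Named are, per role, the 3 members with the highest mean and the 3 with the largest difference, every member with groups apart by a difference of at least 0.2, and the 3 pathway genes per list with the largest difference. Any further gene was picked from its values. Alternatives were a replicate block, quantile normalisation, a filter on probe sets below the lower quartile, an intensity trend, the methods' t-test, the mean of all probe sets of a gene and leaving out each array. Prlr and Tcf7 were not matched to a probe set of their own and were not analysed here.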

Additional observations from a re-analysis of the deposited data

How the results depend on the processing

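The 25 members named by rule kept their direction under quantile normalisation; the filter on dim probe sets, the intensity trend, the methods' t-test and the replicate block leave the differences as they are. Over all settings, 0 members passed the adjusted p (smallest 0.129, without R-SDS 2). The labels tie arrays of 1 number by the number only. The correlation of R-SDS 1 minus R-SDS 2 with Control 1 minus Control 2 was 0.517 over all probe sets and 0.636 over the members. With the replicate block, 54 probe sets were higher past the thresholds of the methods (log2 difference beyond 0.5 and unadjusted p under 0.05), against 32 without it, and the members under that unadjusted p were Wnt3a and Dkkl1. The filter on dim probe sets gave 21 higher and 6 lower, and the methods' t-test 6 higher and 13 lower, against 32 and 42. Leaving out single arrays gave 74 to 416 higher and 67 to 323 lower, with 0 to 49 past the adjusted p, and 0 to 4 members higher and 0 to 1 lower. The 4 were Sfrp1, Sfrp5, Fzd4 and Fzd7, without R-SDS 2. A lone array was assumed to vary like the other group. Members with groups apart then numbered 10 to 17 higher and 11 to 14 lower, since fewer arrays overlap less often. The shares of 9.52% and 8.81% of all genes hold for all 4 arrays and cannot be set beside these counts. Nothing about the members is read from them. In the R-spondin module and among the other receptors and extracellular modulators, 0 to 1 gene passed the thresholds. The direction held without any single array for 10 of the 25 named members, and turned for 15, for which the cause was not tested. Their ranges were -0.061 to 0.24 (Wnt7b), -0.26 to 0.083 (Wnt4), -0.056 to 0.18 (Fzd3), -0.11 to 0.19 (Fzd1), -0.23 to 0.11 (Fzd2), -0.046 to 0.30 (Fzd6), -0.084 to 0.52 (Fzd7), -0.29 to 0.89 (Fzd4), -0.15 to 0.31 (Frzb), -0.38 to 1.40 (Sfrp1), -0.042 to 0.70 (Sfrp5), -0.27 to 0.32 (Dkk3), -0.045 to 0.54 (Dkk2), -0.012 to 0.28 (Dkk4) and -0.16 to 0.19 (Axin2). Signal limits the dim genes, as 28 of the 44 members lay below the median of all genes.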
